A study of Mus musculus with 12 samples.

Results

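The 6 genes Pdgfra, Cspg4, Gpr17, Vcan, Olig2 and Sox10, which mark oligodendrocyte precursor cells, were followed by their spliced reads in mouse neocortex and in neocortical cultures. They were taken by gene symbol, 6 of the 19028 genes that had a junction in the deposited tables, and brought 157 of 686683 distinct junctions with a symbol. Of these junctions 62 belonged to Pdgfra, 50 to Vcan, 22 to Cspg4, 8 to Olig2, 8 to Sox10 and 7 to Gpr17. Annotated introns accounted for 52 of the 157 junctions and for 99.51% of the 94120 spliced reads of the 6 genes.

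Polyadenylated RNA of wild-type NMRI mice was sequenced in stranded libraries, 12 in all and 2 for each of 6 groups. Cultures came from the dissociated neocortex of E16.5 embryos and were grown for 14 days, so they hold a mixture of cells. In the second experiment, cultures given DRB at 50 uM for 2 hours together with bicuculline at 20 uM for 1 hour were set against cultures given DRB alone at the same dose and time. In the first experiment, cultures given DRB at 50 uM for 2 hours were set against untreated control cultures. Tissue came from the neocortex at postnatal day 49 (P49), a young adult age, and at postnatal day 10 (P10). DRB inhibits the kinase that releases paused RNA polymerase and so stops most new transcription. Bicuculline removes inhibition at GABA-A receptors, which makes the network of neurons more active. The study asked which introns are retained in these RNAs and whether activity changes that. Only the spliced reads are described here. Each library of the first experiment and of tissue (1 table) had between 49559425 and 73900724 spliced reads, and each of the second experiment between 62423801 and 69852903.

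Oligodendrocyte precursor cells arise from progenitors that switch on the transcription factors Olig2 and Sox10, divide in response to platelet-derived growth factor through its receptor PDGFRα (Pdgfra), and carry the proteoglycan NG2 (Cspg4) on their surface. GPR17 is a receptor of precursors that have begun to differentiate and is lost again before myelin is made. Versican (Vcan) is a secreted chondroitin sulphate proteoglycan of the lectican family, made by precursors and by other cells. Pdgfra is also transcribed by fibroblasts, Cspg4 by pericytes, Vcan by fibroblasts and some neurons, and Olig2 by some astrocytes and their progenitors. In bulk RNA, fewer cells of a type and less RNA per cell cannot be told apart.

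Versican exists in forms that differ by 2 large exons, which code for the attachment regions of the chondroitin sulphate chains. In the longest transcript (Vcan-203, 15 exons) these are exon 7 and exon 8. Form V0 has both, V1 has exon 8 only, V2 has exon 7 only and V3 has neither. V2 is known as the main form of the adult brain. The joins below are shown because the results on Vcan turn on them. Each line gives the last 20 bases of the upstream exon in lower case and the first 20 bases of the downstream exon in capitals, 5′ to 3′ on the minus strand of chromosome 13, from the GENCODE M21 transcripts (GRCm38).
exon 6 to exon 7 (V0 and V2): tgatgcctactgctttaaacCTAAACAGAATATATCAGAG
exon 7 to exon 8 (V0): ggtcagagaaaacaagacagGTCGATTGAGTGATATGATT
exon 8 to exon 9 (V0 and V1): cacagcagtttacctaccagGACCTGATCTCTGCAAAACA
exon 6 to exon 8 (V1): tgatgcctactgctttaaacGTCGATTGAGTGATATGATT
exon 7 to exon 9 (V2): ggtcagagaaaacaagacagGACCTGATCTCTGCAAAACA
exon 6 to exon 9 (V3): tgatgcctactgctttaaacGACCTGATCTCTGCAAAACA
The tables list junctions between neighbouring exons, so reads were available for the first 3 joins. The last 3, which skip an exon, were not analysed here. The coordinates of the exon ends are chr13:89712205 and chr13:89705797 for the join of exons 6 and 7, chr13:89702918 and chr13:89693501 for exons 7 and 8, and chr13:89688285 and chr13:89685192 for exons 8 and 9.

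Levels are given as CPM, the spliced reads over the annotated junctions of a gene scaled to the TMM-adjusted library size, with n = 2 libraries per group throughout. The numbers 1 and 2 of libraries follow column order and carry no further meaning. Each change has its adjusted p from edgeR's quasi-likelihood test, with the Benjamini-Hochberg method over all genes, and a gene is said to rise or fall where that is under 0.05. The labels do not say whether both libraries of a group stem from different animals or dishes. The column names of both P10 libraries share a tissue code while those of P49 carry different ones, so it is not known whether the P10 pair stems from 1 animal. The p-values therefore measure only the spread between these libraries, which may be technical. The libraries of each group differed by more than counting noise (chi-square per degree of freedom 2.44 to 5.90, on the most-read junction of each gene with at least 20 reads, where a read counts once), so no pair was treated as copies of 1 library. This does not show that they are separate animals or cultures.

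**Figure D1:**
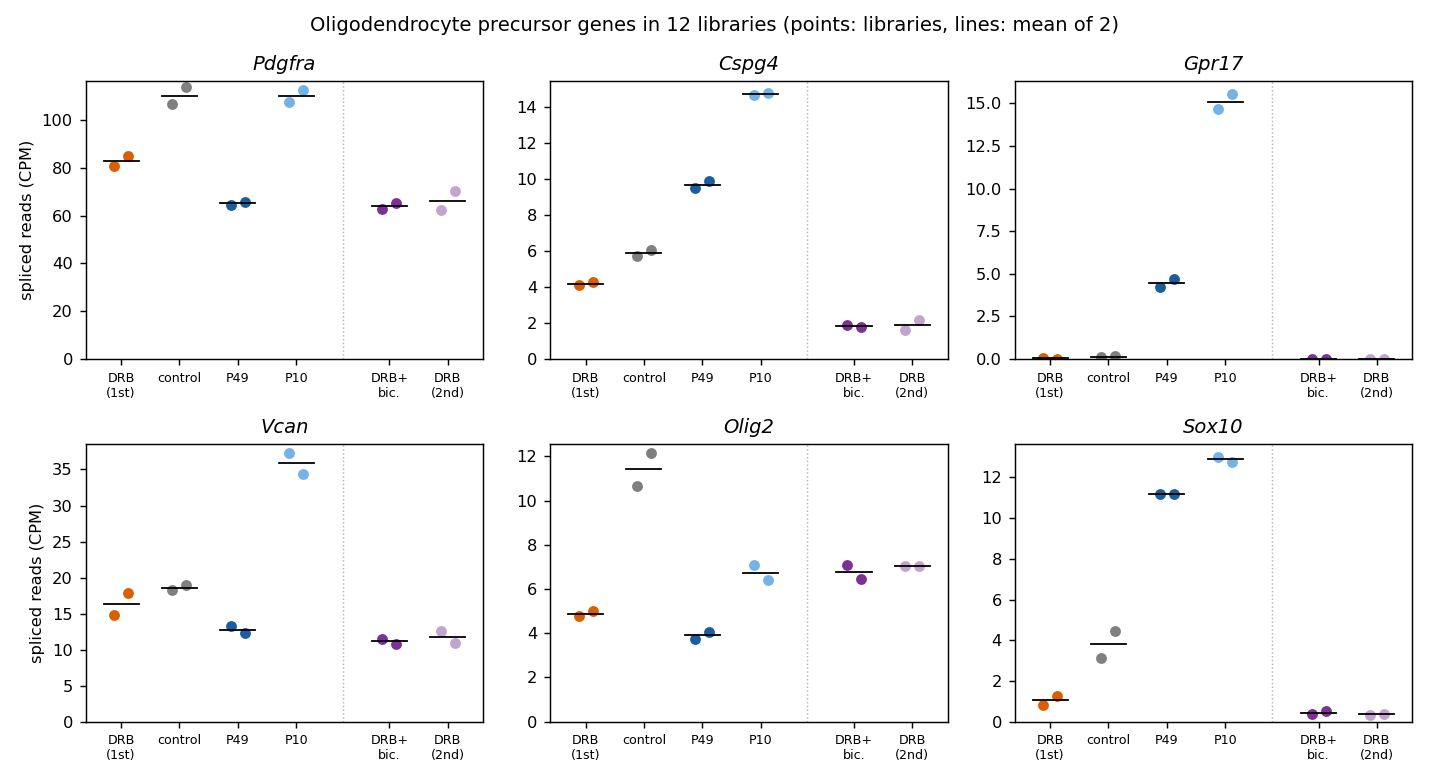
Spliced reads in CPM (y axis, linear from 0) of the 6 genes in each library, with the mean of the 2 libraries of a group as a line. Groups to the left of the dotted line come from the first table and groups to the right from the second, which was scaled separately. Gpr17 is at 0.185 CPM or less in all 8 culture libraries and at 14.7 and 15.5 CPM at P10.

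Levels were also divided by the number of listed introns of 1 reference transcript per gene, to set genes of different intron number side by side. This scale can place Vcan too low, since some of its forms lack joins that enter the division and exon-skipping joins were not counted. Reads were uneven along other genes too, from 131 to 476 per junction for Sox10 in library 1 of P10, which this scale does not show. In control cultures the order was Olig2 with 11.41 CPM per junction, Pdgfra with 5.25 and Vcan with 1.33. Sox10 followed with 1.27, Cspg4 with 0.658 and Gpr17 with 0.148. The libraries of Vcan (1.31 and 1.36) and Sox10 (1.05 and 1.48) overlapped. At P10 the order was Gpr17 with 15.11, Olig2 with 6.73, Pdgfra with 5.24, Sox10 with 4.29, Vcan with 2.56 and Cspg4 with 1.64. Gpr17 thus stood last in untreated cultures and first in tissue at P10, while the Pdgfra means of these groups differed by less than the spread between libraries.

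The transcription factors come first. Olig2, which specifies the lineage, lies at chr16:91225457-91228677 on the plus strand and has a single intron in its 5′ untranslated region, so its level rests on 1 junction. It had 7.08 and 6.44 CPM with DRB and bicuculline, against 7.05 and 7.02 CPM with DRB alone in that experiment. In the first experiment Olig2 had 4.77 and 4.99 CPM with DRB, against 10.67 and 12.15 CPM in control cultures. In tissue it had 3.76 and 4.05 CPM at P49, against 7.08 and 6.39 CPM at P10. Control cultures were the highest group and P49 tissue the lowest, with no overlap between either and any other group. The levels at P10, with DRB in the second experiment and with DRB and bicuculline overlapped.

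Sox10, which acts throughout the lineage and drives myelin genes in mature oligodendrocytes, lies at chr15:79154908-79165240 on the minus strand and has 3 introns. It had 0.359 and 0.526 CPM with DRB and bicuculline, against 0.352 and 0.366 CPM with DRB alone. In the first experiment the level was 0.837 and 1.28 CPM with DRB, against 3.15 and 4.45 CPM in control cultures. Tissue had 11.19 and 11.20 CPM at P49, against 13.02 and 12.74 CPM at P10. Both tissue groups lay above every culture library. In reads, the culture with the most Sox10 held 265 over the 3 junctions, and the second experiment held 23 to 33 per library.

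Pdgfra, the receptor for the mitogen PDGF-A, lies at chr5:75152292-75198215 on the plus strand. Of the 22 introns of its reference transcript 21 were listed, each with 89 reads or more in every library. It had 62.9 and 65.1 CPM with DRB and bicuculline, against 62.4 and 70.2 CPM with DRB alone. With DRB in the first experiment it had 80.8 and 84.9 CPM, against 106.6 and 113.8 CPM in control cultures. At P49 it had 64.5 and 65.9 CPM, against 107.7 and 112.5 CPM at P10. Control cultures and P10 tissue overlapped at the top of the order, and both groups of the second experiment overlapped with P49 tissue at its foot.

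Cspg4, the NG2 proteoglycan, lies at chr9:56865033-56899870 on the plus strand and has 9 introns. With DRB and bicuculline it had 1.90 and 1.77 CPM, against 1.61 and 2.20 CPM with DRB alone. The first DRB group had 4.09 and 4.29 CPM, against 5.76 and 6.08 CPM in control cultures. Tissue had 9.49 and 9.88 CPM at P49, against 14.67 and 14.80 CPM at P10. Cspg4 was higher in all 4 tissue libraries than in any culture, and its 4 groups in the first table did not overlap.

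Gpr17, the receptor of precursors on the way to differentiation, lies at chr18:31942997-31949636 on the minus strand and has 1 intron, in its 5′ untranslated region. The intron was crossed by 1 and 1 reads with DRB and bicuculline, 2 and 1 reads with DRB alone in the second experiment, 3 and 1 reads with DRB in the first, and 6 and 11 reads in control cultures. At P49 it was crossed by 282 and 281 reads, or 4.21 and 4.72 CPM, against 1013 and 1157 reads, or 14.7 and 15.5 CPM, at P10. The exact 95% Poisson interval of the higher control library ran from 0.0923 to 0.331 CPM and that of the lower P49 library from 3.73 to 4.73 CPM, for counting error only. Gpr17 was therefore close to the floor of the measurement in cultures, where both groups of the second experiment held 3 reads or fewer and give no fold.

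Vcan lies at chr13:89655312-89742509 on the minus strand and has 14 introns. With DRB and bicuculline it had 11.5 and 10.8 CPM, against 12.6 and 10.9 CPM with DRB alone. In the first experiment it had 14.8 and 17.8 CPM with DRB, against 18.3 and 19.0 CPM in control cultures. P49 tissue had 13.2 and 12.3 CPM, against 37.3 and 34.4 CPM in P10 tissue. P10 tissue stood apart at the top, and P49 tissue overlapped with the DRB group of the second experiment.

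Adult tissue was then tested against developing tissue. In P49 neocortex 5 of the 6 genes fell relative to P10 and none rose. Among all 15256 genes tested, 29% fell and 28.3% rose. The median log2 change of the 6 genes was -0.77, beside -0.002 over all genes. The largest change was that of Gpr17, which was 3.39-fold lower at P49 (log2 change -1.76 ± 0.135 SE, adjusted p = 6.69e-07). Vcan was 2.81-fold lower (log2 change -1.49 ± 0.0957, adjusted p = 1.62e-07).

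Olig2 was 1.73-fold lower at P49 (log2 change -0.79 ± 0.119, adjusted p = 1.54e-04), Pdgfra 1.69-fold lower (-0.76 ± 0.0512, adjusted p = 2.44e-07) and Cspg4 1.52-fold lower (-0.61 ± 0.0917, adjusted p = 1.58e-04). All 21 listed introns of Pdgfra, all 9 of Cspg4 and all 14 of Vcan had a lower mean CPM at P49. The call of Cspg4 was lost when its most-read junction alone was counted (adjusted p = 0.0518). Sox10 differed by a log2 change of -0.20 ± 0.154 (adjusted p = 0.283), with all 3 introns lower in mean CPM. Its 2 libraries at P49 lay below both at P10, a difference that did not pass the test.

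**Figure D2:**
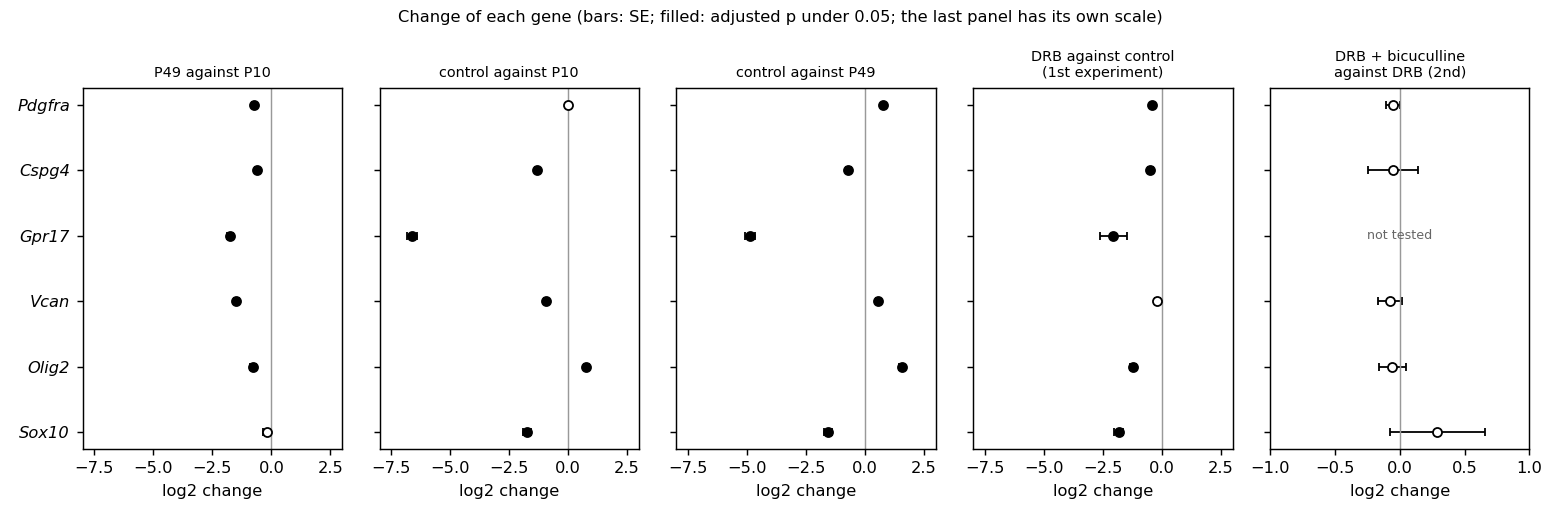
Log2 change of each gene (x axis, with SE) in the 5 comparisons, from edgeR's quasi-likelihood test. Filled points have an adjusted p under 0.05, and the last panel has its own scale. Gpr17 has the lowest value for P49 against P10 and for control cultures against either tissue, down to -6.64 against P10. Its point for DRB rests on 4 reads against 17, and there it passed the filter on low counts through its tissue libraries.

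Other genes of the lineage were read from lists beside the 6. Of 19 further precursor genes tested, 12 fell and 2 rose at P49, with a median log2 change of -0.50. Over all genes 29% fell and 28.3% rose, which stands beside each list count at P49 below. Ednrb, an endothelin receptor, had 28.4 and 27.2 CPM at P49, against 75.7 and 70.7 CPM at P10 (adjusted p = 2.21e-08). Cacng4, an auxiliary subunit of AMPA receptors and calcium channels, averaged 15.7 ± 0.0651 CPM at P49 and 40.2 ± 1.17 CPM at P10 (SD).

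Of 13 genes of committed and newly formed oligodendrocytes 9 fell and 3 rose at P49. Myrf, the transcription factor that starts myelin gene expression, was among those that rose, averaging 80.2 CPM at P49 and 41.7 CPM at P10. Genes of mature oligodendrocytes and myelin rose in 13 of 13 cases, with a median log2 change of 1.63. Mal, a myelin membrane protein, averaged 64.3 ± 2.52 CPM at P49 and 5.03 ± 0.49 CPM at P10 (SD).

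Of the PDGF ligands and the other receptor, 2 of 5 were lower and 1 higher at P49, beside 29% and 28.3% of all genes. No conclusion about the list is drawn from so few genes. Pdgfb, a ligand made by endothelium and neurons, fell to 15.9 CPM at P49, against 23.7 CPM at P10, and Pdgfrb, a receptor of pericytes and other mural cells, fell to 42.2 CPM, against 53.5 CPM. Pdgfa, the ligand of PDGFRα, averaged 31.5 CPM at P49 and 36.1 CPM at P10 (adjusted p = 0.065). Versican's relatives and partners were lower in 7 of 12 cases and higher in 2. Tnc, the matrix protein tenascin-C, fell to 11.4 CPM at P49, against 86.3 CPM at P10. Ncan, the juvenile lectican neurocan, averaged 171 CPM at P49 and 363 CPM at P10. The 2 that rose were Hapln2 and Hapln4, link proteins of the adult perinodal and perisynaptic matrix. Of 7 proteases that cleave versican or their inhibitor, 4 fell and 1, the inhibitor Timp3, rose.

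Markers of other cells that carry some of the 6 genes also differed with age. Genes of fibroblasts and meninges fell in 8 of 10 cases at P49, with a summed level of 344.7 to 363.4 CPM at P49 and 944.8 to 977.3 CPM at P10. Pericyte and smooth muscle genes fell in 5 of 10 cases and rose in 2, with sums of 267.0 to 275.7 CPM and 316.3 to 316.7 CPM. No gene of either list was at 0 in these groups. Their part in the lower Pdgfra, Vcan and Cspg4 was not tested.

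Control cultures were compared with tissue next. Against P10, 4 of the 6 genes fell in culture and 1 rose, with 37.2% of all genes lower and 37.2% higher. Gpr17 was lowest, with a log2 change of -6.64 ± 0.215 (adjusted p = 1.6e-10). Sox10 was 3.38-fold lower (-1.76 ± 0.167, adjusted p = 1.5e-06), Cspg4 2.49-fold lower (-1.32 ± 0.0954, adjusted p = 1.36e-07) and Vcan 1.92-fold lower (-0.94 ± 0.0939, adjusted p = 2.32e-06). Olig2 rose 1.70-fold (0.76 ± 0.113, adjusted p = 7.05e-05). Pdgfra differed by 0.001 ± 0.0506 (adjusted p = 0.983), with 11 of its 21 introns higher in mean CPM and 10 lower.

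Against P49, 3 of the 6 rose in culture and 3 fell, with 39.5% of all genes higher and 37% lower. Olig2 was 2.93-fold higher (log2 change 1.55 ± 0.118, adjusted p = 1.79e-07), Pdgfra 1.69-fold higher (0.76 ± 0.0514, adjusted p = 6.28e-08) and Vcan 1.46-fold higher (0.55 ± 0.0969, adjusted p = 2.89e-04). The call of Vcan was lost when its most-read junction alone was counted (adjusted p = 0.123). Gpr17 was 29.4-fold lower (-4.88 ± 0.231, adjusted p = 2.46e-09), Sox10 2.94-fold lower (-1.55 ± 0.167, adjusted p = 4.1e-06) and Cspg4 1.63-fold lower (-0.71 ± 0.0965, adjusted p = 3.22e-05). The control libraries enter both comparisons with tissue, so the results of these comparisons are not independent. The 6 genes did not share a direction between culture and tissue. With 39.5% of all genes higher and 37% lower against P49, a mixed split is likely for any 6 genes, so no conclusion is drawn from it. In the same control libraries Olig2 was above both tissue groups and Sox10 below them.

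Of the 19 further precursor genes, 13 fell and 5 rose in control cultures against P10, where 37.2% of all genes fell and 37.2% rose. Ptprz1, a receptor phosphatase also abundant in astrocytes and progenitors, rose to 1319 ± 77.6 CPM, against 481 ± 34.8 CPM at P10, and Sox6, a factor that holds precursors undifferentiated, rose to 48.9 CPM, against 14.2 CPM. Matn4, a matrilin of precursors, fell to 6.79 CPM, against 32.6 CPM. In committed oligodendrocytes 12 of 13 genes fell. Bcas1, which marks newly forming oligodendrocytes, averaged 2.52 ± 0.116 CPM in control cultures and 107 ± 0.115 CPM at P10 (SD), and Enpp6 averaged 0.254 CPM and 10.5 CPM. All 13 myelin genes fell, with a summed level of 105.5 to 119.8 CPM in control cultures and 1016 to 1174 CPM at P10. Tcf7l2, which is the 1 committed gene that rose, is also transcribed by other neural cells.

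Levels of other cell types differed between cultures and tissue as well. Astrocyte markers summed to 2114 to 2159 CPM in control cultures and 1608 to 1722 CPM at P10. Of the 8 astrocyte genes tested 4 rose in control cultures and 3 fell. Slc1a3 averaged 994 CPM in control cultures and 320 CPM at P10, while S100b averaged 1.63 CPM and 36.2 CPM. Neuron markers summed to 1925 to 2053 CPM in control cultures and 5240 to 5338 CPM at P10, and microglia markers to 47.3 to 58.6 CPM and 270.2 to 282.5 CPM. Pericyte and smooth muscle markers summed to 926.8 to 1124 CPM in control cultures and 316.3 to 316.7 CPM at P10. That sum was carried by Acta2 and Tagln, contractile genes also made by other cultured cells, at 547 and 403 CPM in culture. Of the 10 genes of that list 2 rose in control cultures and 8 fell. Rgs5 averaged 0.0868 CPM in control cultures and 36.6 CPM at P10, Vtn averaged 1.36 CPM in control cultures and 91.1 CPM at P10, and Kcnj8 was at 0 in control cultures. Pdgfrb was not near 0, with an average of 39.7 CPM in control cultures and 53.5 CPM at P10. Fibroblast markers summed to 1109 to 1254 CPM in culture and 944.8 to 977.3 CPM at P10, although 8 of the 10 genes fell in control cultures and 2 rose. Thbs1 led the sum in culture at 711 CPM. The collagen gene Col1a2 averaged 21.1 CPM in culture and 232 CPM at P10.

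**Figure D3:**
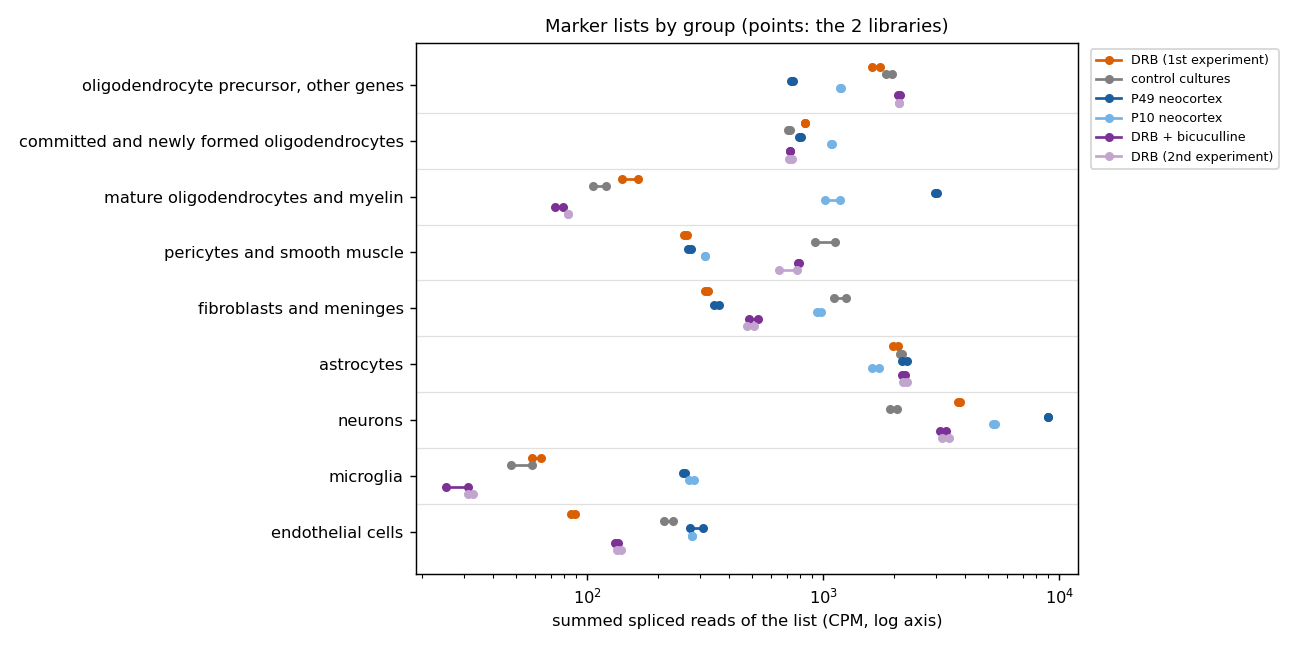
Summed CPM (x axis, log scale) of 9 marker lists in the 2 libraries of each group. Myelin genes sum to at most 164.4 CPM in any culture library, to 2986 to 3049 CPM at P49 and to 1016 to 1174 CPM at P10.

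DRB was then compared with untreated cultures, a comparison the study made to follow how RNAs with retained introns change once transcription stops. With DRB 4 of the 5 genes other than Gpr17 fell and none rose, where 33.3% of all genes fell and 30% rose. CPM is a share of the spliced reads that remain, so each change is relative to the other RNAs. The middle of the 5 log2 changes was that of Cspg4, -0.50, beside a median of -0.03 over all genes. Unused columns next to the first DRB counts carry TTX, a sodium channel blocker, in their names. The labels give these cultures DRB alone, and whether they also received TTX is not known.

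Sox10 was 3.57-fold lower with DRB (log2 change -1.84 ± 0.207, adjusted p = 1.15e-05) and Olig2 2.34-fold lower (-1.23 ± 0.117, adjusted p = 3e-06). Cspg4 was 1.41-fold lower (-0.50 ± 0.102, adjusted p = 0.00115) and Pdgfra 1.33-fold lower (-0.41 ± 0.0511, adjusted p = 2.51e-05). All 21 introns of Pdgfra and 8 of 9 of Cspg4 were lower in mean CPM. Both calls were lost when the most-read junction alone was counted (adjusted p = 0.0517 for Pdgfra and 0.335 for Cspg4). The differences between genes in their response were not tested.

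Gpr17 is kept apart because it passed the filter on low counts through its tissue libraries. With all 8 libraries in the fit its log2 change was -2.06 ± 0.577 (adjusted p = 0.0083), on 4 reads with DRB against 17 in control cultures. When the DRB and control libraries alone were fitted, it did not pass the filter and was not tested. The ratio of the pooled reads, scaled to library size, was 0.229 with an exact 95% interval of 0.0562 to 0.703 for counting error. The call was lost without library 2 of the DRB group and without library 2 of the control group (adjusted p = 0.104 in both cases). Vcan differed by -0.19 ± 0.0961 (adjusted p = 0.108). Without library 2 of the DRB group Vcan was called lower (-0.33, adjusted p = 0.0213), and with its most-read junction alone the sign turned (0.35, adjusted p = 0.111).

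In the lists, Sox8, among the further precursor genes, and Bmp4, among the committed genes, fell with DRB. Sox8, the close relative of Sox10, averaged 0.630 CPM with DRB and 5.47 CPM in control cultures. Bmp4, a secreted signal of committed precursors, averaged 0.0868 CPM with DRB and 2.38 CPM in control cultures. Of the 19 further precursor genes 8 fell and 7 rose, where 33.3% of all genes fell and 30% rose. Of the 13 committed genes 4 fell and 8 rose, with a median log2 change of 0.39, and Tmem163 averaged 44.4 CPM with DRB and 25.0 CPM in control cultures. Among the further precursor genes that rose was Cspg5, a transmembrane proteoglycan also made by neurons and astrocytes. It averaged 316 CPM with DRB and 198 CPM in control cultures. Myelin genes rose in 5 of 13 cases and fell in 3, with Mbp at 39.2 CPM with DRB and 20.0 CPM in control cultures. Genes that cleave versican, or inhibit that, fell in 6 of 7 cases. Adamts1 averaged 4.52 CPM with DRB and 32.3 CPM in control cultures.

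Markers of other cells moved with DRB too. Pericyte and smooth muscle markers summed to 256.0 to 264.5 CPM with DRB and 926.8 to 1124 CPM in control cultures. Of these 10 genes 6 fell and 2 rose. Acta2 averaged 128 CPM with DRB and 547 CPM in control cultures, and Tagln 90.1 and 403 CPM. Fibroblast markers summed to 316.8 to 326.4 CPM with DRB and 1109 to 1254 CPM in control cultures, with 6 of 10 lower and 1 higher. Thbs1 averaged 91.4 and 711 CPM and Fn1 141 and 366 CPM, while Dcn rose to 27.0 CPM, against 12.2 CPM. Neuron markers summed to 3713 to 3812 CPM with DRB and 1925 to 2053 CPM in control cultures, and all 8 of them rose. Astrocyte markers summed to 1967 to 2068 CPM and 2114 to 2159 CPM. Kcnj8 was at 0 in both groups. Their part in the lower Pdgfra and Cspg4 was not tested. The DRB groups of the first and second experiments carry the same labelled dose and time, with the doubt about TTX in the first. Sox10 averaged 1.06 CPM in the first and 0.359 CPM in the second, Cspg4 4.19 and 1.90 CPM, Pdgfra 82.8 and 66.3 CPM, and Olig2 4.88 and 7.04 CPM. The tables were scaled separately, so these values stand side by side without a test.

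With bicuculline added to DRB, none of the 5 genes tested rose or fell, at an adjusted p of 1.00 each, and none had an unadjusted p under 0.05. Among 14138 genes tested 0.184% rose and 0.0283% fell. The log2 changes were -0.05 ± 0.053 for Pdgfra, -0.05 ± 0.193 for Cspg4, -0.08 ± 0.0898 for Vcan, -0.06 ± 0.105 for Olig2 and 0.29 ± 0.366 for Sox10. The spread is narrow for Pdgfra and wide for Sox10, which rests on 23 to 33 reads per library. DESeq2 with its size factors called none of the 5 either. Gpr17 did not pass the filter on low counts. None of the 17 further precursor genes tested, 12 committed genes or 10 myelin genes was called, at 1, 0 and 0 higher and 0, 1 and 3 lower with an unadjusted p under 0.05.

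Splicing of Vcan differed between the groups around its chondroitin sulphate exons. The join of exons 8 and 9, present in V0 and V1, was crossed by 24 and 18 reads at P49, against 177 and 165 reads at P10. Per read across the following join, of exons 9 and 10, this was 0.245 and 0.243 at P49, against 0.596 and 0.63 at P10. The ratio did not overlap between the ages. Relative to the rest of the gene the join was lower at P49 by a log2 change of -1.35 (adjusted p = 1.27e-04, edgeR's test of annotated junctions within a gene), where 1.46% of 170936 junctions were called. The call held without each library in turn, at an adjusted p of at most 0.0159.

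The join of exons 6 and 7, present in V0 and V2, had 0.857 and 0.833 reads per read across the join of exons 5 and 6 at P49, against 0.818 and 0.606 at P10. Its change relative to the gene was 0.64 (adjusted p = 0.646). The join of exons 7 and 8, which only V0 has, was crossed by 2 and 1 reads at P49, against 11 and 9 reads at P10. Per read across the join of exons 6 and 7 that was 0.056 and 0.033 at P49, against 0.153 and 0.143 at P10, with a relative change of -0.97 (adjusted p = 1.00). In tissue, then, forms that contain exon 8 gave a smaller share of Vcan reads at P49, and V0 itself was scarce at both ages.

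**Figure D4:**
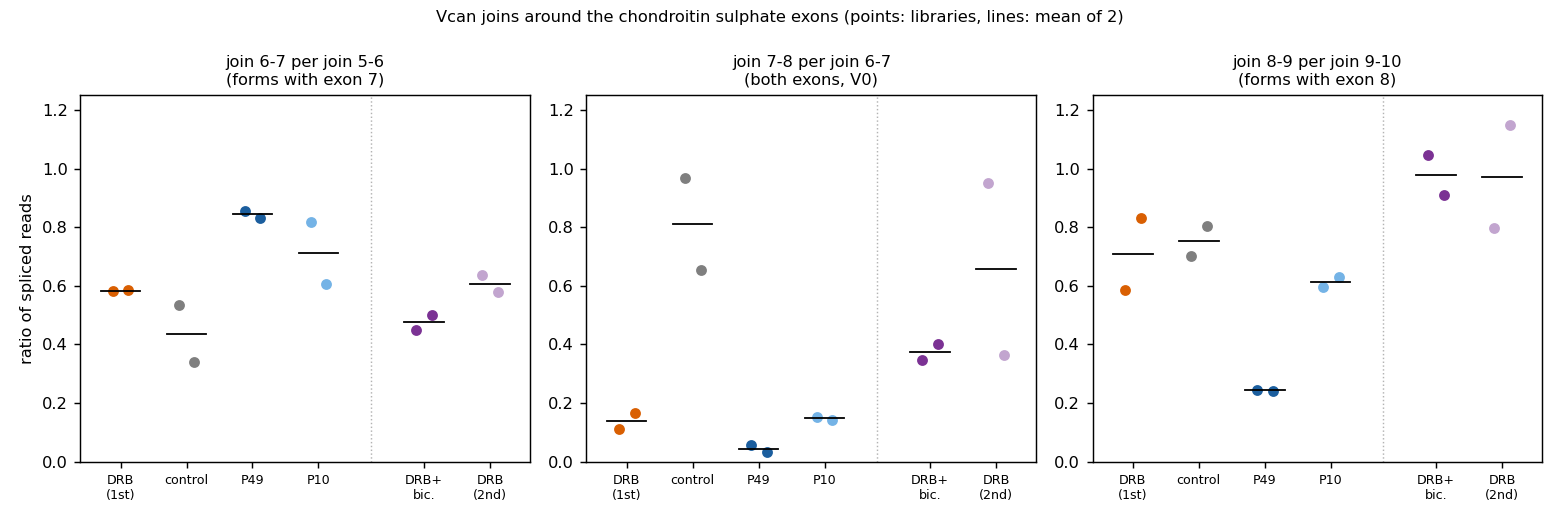
Ratio of spliced reads (y axis) across 3 Vcan joins in each library, with the mean of the 2 libraries as a line. The mean ratio for the join of exons 8 and 9 is 0.244 at P49 and 0.613 at P10. That for the join of exons 7 and 8 has a mean of 0.812 in control cultures, 0.148 at P10 and 0.0445 at P49.

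Cultures differed from tissue in the join of exons 7 and 8. It was crossed by 31 and 19 reads in control cultures, against 11 and 9 reads at P10, although P10 held more Vcan reads in all. Per read across the join of exons 6 and 7 this was 0.969 and 0.655 in control cultures, against 0.153 and 0.143 at P10 and 0.056 and 0.033 at P49. It was the only intron of the 14 with a higher mean CPM in control cultures than at P10. Relative to the gene it was higher by a log2 change of 2.60 against P10 (adjusted p = 1.13e-05) and of 3.58 against P49 (adjusted p = 2.31e-05), where 4.86% and 4.94% of all junctions were called. Both calls held without each library in turn, at adjusted p of at most 0.0463 and 0.0132.

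The join of exons 8 and 9 had 0.701 and 0.805 reads per read of the next join in control cultures, against 0.245 and 0.243 at P49, a relative log2 change of 1.53 (adjusted p = 1e-05). Against P10 it differed by 0.18 (adjusted p = 0.848). Untreated cultures thus had more reads of the join specific to V0, relative to the gene, than either tissue.

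With DRB in the first experiment the join of exons 7 and 8 was crossed by 2 and 4 reads, against 31 and 19 reads in control cultures. Per read across the join of exons 6 and 7 this was 0.111 and 0.167 with DRB, against 0.969 and 0.655 in control cultures. Relative to the gene it was lower by a log2 change of -2.87 (adjusted p = 4.11e-04), where 1.43% of junctions were called. The call was lost without library 1 of the control group (adjusted p = 0.162). The joins on either side changed by -0.39 (exons 6 and 7, adjusted p = 0.937) and -0.01 (exons 8 and 9, adjusted p = 1.00).

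In the second experiment the join of exons 7 and 8 was crossed by 8 and 8 reads with DRB and bicuculline, against 20 and 8 reads with DRB alone. The ratios to the join of exons 6 and 7 were 0.348 and 0.4 with bicuculline, against 0.952 and 0.364 with DRB alone. The groups overlapped, no Vcan join was called, and over all genes 0.00193% of junctions were. The first DRB group, with the same labelled dose and time, had lower ratios, 0.111 and 0.167. The second DRB group lay above it and overlapped with control cultures, at 0.969 and 0.655. The lower ratio with DRB in the first experiment was thus not seen in the second. The DRB groups were not tested against each other.

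**Figure D5:**
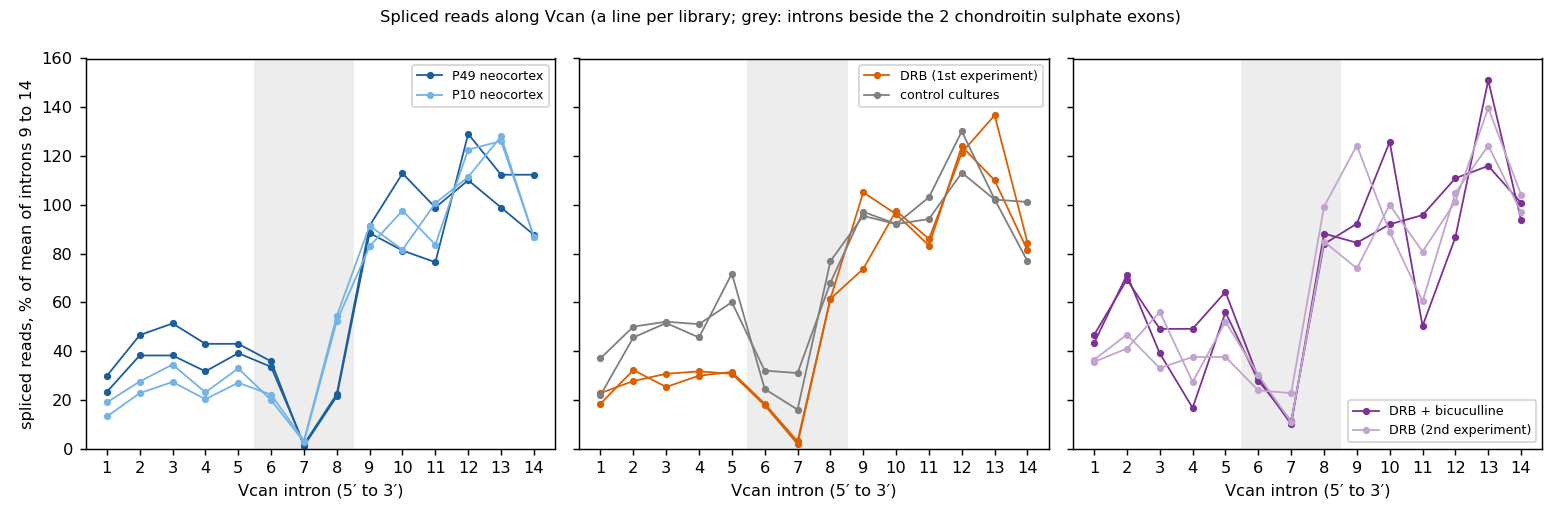
Spliced reads across each of the 14 Vcan introns, 5′ to 3′, as a percentage of the mean of introns 9 to 14 (y axis), with a line per library. In all 12 libraries the lowest value is at intron 7, between the 2 chondroitin sulphate exons, and the mean of introns 1 to 5 lies below that of introns 9 to 14.

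Reads were fewer toward the 5′ end of Vcan in every library. The mean of introns 1 to 5 was 55.7% and 45.3% of that of introns 9 to 14 with DRB and bicuculline, against 38.3% and 42.5% with DRB alone. It was 28.8% and 27.5% with DRB in the first experiment, against 50.1% and 47.3% in control cultures, and 34.2% and 42.8% at P49, against 22.2% and 27.4% at P10. Relative to the gene, introns 4 and 5 were higher (log2 changes 0.88 and 0.88, adjusted p = 0.0223 and 0.00756) and intron 13 lower (-0.58, adjusted p = 0.00815) in control cultures than at P10. Each of these calls was lost without at least 2 of the 4 libraries in turn. RNA integrity was not measured in the files, and its part in this gradient was not tested.

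Some Vcan reads used splice sites outside the annotation. Where junctions compete for a shared donor, no Vcan junction was called in the 4 comparisons of the first table and none was tested for bicuculline. Over all genes 0.517% of junctions were called for P49 against P10, 1.07% and 1.9% for control cultures against P10 and P49, 1.41% for DRB and 0% for bicuculline. At shared acceptors no Vcan junction was called for P49 against P10, for control cultures against P10 or for bicuculline, where 1.06%, 2.33% and 0.00308% of all junctions were. Between exons 7 and 8, junctions at chr13:89702471 and chr13:89702438 bounded a segment of 34 bases. Its upstream junction took 1 of 3 and 1 of 5 reads at the donor of exon 7 with DRB, and was not called. In control cultures it took 3 of 34 and 0 of 19. Reads on both sides of the segment were unequal with DRB, so the downstream share does not measure how often the whole segment was included. Its downstream junction took 5 of 7 and 8 of 12 reads at the acceptor of exon 8 with DRB, against 1 of 32 and 0 of 19 in control cultures. That is 71.4% and 66.7%, with exact Clopper-Pearson 95% intervals of 29.0% to 96.3% and 34.9% to 90.1%, against 3.12% and 0%, with intervals of 0.08% to 16.2% and 0% to 17.6%. The share differed by a log2 change of 4.85 (adjusted p = 0.0101, among junctions that share an acceptor, of which 1.31% were called), and the call was lost without any of the 4 libraries in turn (adjusted p of 0.0718 to 0.144). In the second experiment the same junction took 9 of 17 and 8 of 16 reads with bicuculline, against 4 of 24 and 6 of 14 with DRB alone.

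A further segment was joined between exons 8 and 9, from chr13:89685644 to chr13:89685745 (102 bases) or to chr13:89685750 (107 bases). Its upstream junctions, counted together, took 5.56% and 3.19% of the reads at the donor of exon 8 in control cultures. At P49 they took 11.1% and 33.3%, and none was called. The downstream junction, shared by both lengths, took 0% and 4.21% of the reads at the acceptor of exon 9 in control cultures. Against this stood 17.2% and 28% at P49 (log2 change -3.14, adjusted p = 0.0317, where 3.8% of junctions were called). These shares rest on 0 and 4 of 68 and 95 reads in control cultures and on 5 and 7 of 29 and 25 reads at P49. At P10 the share was 3.8% and 7.82%. The call was lost without library 1 of the control group (adjusted p = 0.277), without library 1 of P49 (0.0728) and without library 2 of P49 (0.308). Among the other genes no junction of Pdgfra, Cspg4 or Sox10 was called relative to its gene in any of the 5 comparisons, and the lowest adjusted p was 0.117, for a junction of Cspg4 with DRB.

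The genes with the most similar course over the 8 libraries of the first table were sought among 9548 genes whose log2 CPM averaged 3 or more, by the root mean square distance between centred log2 (CPM + 0.5) profiles. Nearest to Pdgfra was Lpcat1, a phospholipid acyltransferase, at a distance of 0.069, then Bcl9l and Snap29 at 0.074 and 0.076. Dock6 was nearest to Cspg4 at 0.078, Apc to Vcan at 0.089 and Chaf1a, a chromatin assembly subunit, to Olig2 at 0.117. Gpr17 and Sox10 had less close neighbours, Lama4, a laminin chain of vessels, at 0.177 and Rasgrp3 at 0.274. Among the 6 genes themselves the closest pair was Pdgfra and Olig2 at 0.314 and the most distant Gpr17 and Olig2 at 2.25. Each member had at least 3 genes outside the set that were nearer to it than any other member. With 9548 candidates against the few other members this is likely for any set of genes, so no conclusion is drawn from it. These distances describe 8 libraries of 4 groups and carry no test.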

How the data were processed

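The deposited tables hold, per the file headers, whole-number junction counts, the reads of each library that span an exon-exon junction, not normalised by the authors. STAR 2.4.0f1 and mm10 (GRCm38) are named in the submitters' processing notes. The counting tool is not given in the sources used. Row cells number 64 and 36 against 67 and 39 header names, so columns were read by position. Column names show groups, not replicates. Columns of control, P49 and the second DRB group were identified by elimination, the P10 columns share a tissue code, and some unused columns beside the first DRB counts carry TTX (a sodium channel blocker) in their names. A further 72 columns were not used.

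Distinct junctions matching GENCODE M21 introns (99.13% to 99.29% of spliced reads) were summed per symbol, so a read over several junctions counts repeatedly. Rows without a symbol (0.2% of reads) were dropped. The 6 genes and the 12 gene lists were chosen with earlier results of these data known. From each list up to 4 genes with the smallest p were named per comparison, and for each of the 6 genes the 3 nearest in pattern.

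Sums were tested with edgeR 4.0.16 (TMM, filterByExpr, quasi-likelihood, two-sided), with all 8 libraries of the first table or the 4 of the second. Junctions with at least 10 reads were tested with diffSpliceDGE, grouped by shared donor or acceptor and, added after seeing that exon-skipping joins were not listed, by gene. The scripts were tested on simulated data. A gene of the named genes is not reported here. Alternatives were DESeq2 1.42.0, no filter, all junctions or the most-read junction of a gene, only the groups compared, at least 50 reads per junction, each library left out and, in the second table, a replicate block. Computation used R 4.3.3, limma 3.58.1 and Python 3.11.15. Intervals cover counting error only, since reads carry no molecular identifiers.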

Additional observations from a re-analysis of the deposited data

Results flagged for a closer look

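A junction outside the annotation, chr18:31943803-31944087, lay inside exon 2 of Gpr17 and was crossed by 43 reads at P10, 35 in the first library and 8 in the second. It was picked out because it lies outside the junctions counted for the gene, and at most 2 reads crossed it in any other library.

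In Pdgfra, a junction of 2040 bases inside exon 23 (chr5:75195623-75197662), also outside the annotation, was crossed by 8 reads with DRB in the first experiment, 4 in each library, against 0 in control cultures. It was crossed by 1 and 6 reads with DRB and bicuculline, against 2 and 1 reads with DRB alone, and by 0 reads in all 4 tissue libraries. Whether either difference exceeds the spread between libraries was not tested.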

How the results depend on the processing

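Calls of the 6 genes that were lost are given with the results, as is Gpr17 with DRB, which had no value with only the groups compared. Directions turned only for changes that were not called. For control cultures against P10, Pdgfra had log2 changes of -0.018 with DESeq2, -0.003 without the filter, -0.151 with the most-read junction, -0.002 with only the groups compared, and -0.045 to 0.052 over all alternatives that left out a library, with -0.028 without P10 replicate 1. For DRB, Vcan turned to 0.348 with the most-read junction. For bicuculline, Cspg4 turned to 0.379 with the most-read junction, and leaving out a library gave -0.259 to 0.191 for Cspg4, -0.129 to 0.010 for Olig2, -0.174 to 0.032 for Vcan and -0.134 to 0.037 for Pdgfra. Relative to its gene, the Vcan join of exons 6 and 7 ranged over -0.033 to 0.312 in control cultures against P10 and -0.139 to 0.19 with bicuculline without a library, and that of exons 8 and 9 over -0.106 to 0.109 with DRB. The cause was not tested.

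Genes called with bicuculline, 26 higher and 4 lower, became 45 and 22 without the filter. DESeq2 called 1 lower and the most-read junction 2 lower. Leaving out a library gave 29 to 53 higher and 7 to 35 lower. Junctions called at shared donors, 265, 550, 976, 723 and 0 in the order of the comparisons, ranged without a library over 143 to 202, 299 to 400, 492 to 634, 229 to 311 and 0 to 0. Grouped by acceptor they were 521, 1142, 1862 and, with bicuculline, 1, and with at least 50 reads per junction 2 were called with bicuculline.

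No paired analysis was possible for the first table because its columns carry no replicate number. In the second, a replicate block on the letters a and b gave 59 genes higher and 37 lower and called none of the 6. The letters are not a stated pairing, and the differences between a and b correlated at r = 0.085 over 14138 genes. Depth limits Gpr17 and Sox10 in cultures and the Vcan join of exons 7 and 8, which rest on few reads.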
